A study of Rattus norvegicus with 48 samples.

Results

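ENSRNOG00000008050 and ENSRNOG00000051933 are 2 of the 32662 genes counted in the livers of 48 male Wistar rats. They were picked because their reads almost vanished in rats fed the CDAA diet for 8 weeks or longer. The reads on CDAA and CSAA therefore chose the genes, and every contrast between the diets is given here as a description with no test. On the control diet ENSRNOG00000008050 was an abundant transcript with 2173 to 10191 reads in an animal, and ENSRNOG00000051933 a modest one with 62 to 174 reads. From week 8 of the CDAA diet no animal had more than 31 reads of the first gene or more than 8 of the second.

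The CSAA groups received an L-amino acid diet that contains choline, with 0.4% methionine and with 16% of its energy from fat, 12% from protein and 72% from carbohydrate. The CDAA groups received the choline-deficient counterpart with 1% cholesterol added, 0.17% methionine, and 31% of energy from fat, 11% from protein and 58% from carbohydrate. The outbred rats (RjHan:WI) were 6 weeks old when feeding began, were housed in pairs, and were killed after 4, 8 or 12 weeks, with 8 animals on each diet at each time. The diets thus differed in choline, methionine, cholesterol, fat and carbohydrate together, and the parts of these components cannot be told apart.

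Choline is needed to build phosphatidylcholine, the main phospholipid of the particles in which the liver exports triglyceride. A liver short of choline and methionine retains fat, and rodents on such diets go on to hepatocyte injury, inflammation and fibrosis, which is why the diet serves as a model of steatohepatitis. As scarring advances, the hepatocyte share of the tissue falls while inflammatory and matrix-producing cells accumulate. In bulk liver RNA, fewer cells of a type and less RNA per cell cannot be told apart.

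Genes were listed by Ensembl identifier alone. None of the identifiers was paired with a symbol in the sources used here, so the 2 genes carry no name, function, family or genome position below, and the liver identity of the samples was not checked against marker genes. Libraries held 13619274 to 22284359 reads on genes. A level is given as CPM, the reads of a gene relative to all reads on genes of that animal, scaled per 1000000, or as RPKM, which also divides by gene length. Nothing in the labels says that any animal was sampled more than once, and no pair of libraries within a group agreed within sampling noise.

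ENSRNOG00000008050 was read deeply in every rat on the control diet. At week 4 the 8 CSAA animals had 3825, 5362, 6080, 6402, 4452, 4686, 3787 and 3600 reads. At week 8 they had 4837, 2173, 7170, 3482, 7289, 3014, 3763 and 3707 reads. At week 12 they had 3420, 6345, 5792, 4827, 5846, 5238, 10191 and 2546 reads. The weeks overlapped throughout, and the lowest and the highest of these 24 animals were 1 rat of week 8 (animal 502) and 1 of week 12 (animal 907). The mean level was 265 ± 41.5 CPM at week 4, 262 ± 109 at week 8 and 294 ± 109 at week 12 (SD, n = 8 each). The coefficient of variation between animals was smallest at week 4, at 15.7%, and reached 41.7% at week 8. By RPKM the gene ranked 467th of the 17602 genes detected in the CSAA livers at week 4, and 374th of 17872 at week 12.

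On CDAA the same transcript fell to a few reads, with a wide spread at week 4. The 8 animals had 13, 36, 3166, 89, 4, 11, 12 and 277 reads at that time. Animal 303, with 3166 reads, lay near the control animals, animal 308 with 277 reads came next, and the other 6 had at most 89. At week 8 the counts were 8, 8, 3, 6, 0, 5, 5 and 1, and at week 12 they were 4, 18, 8, 31, 7, 3, 3 and 2. Every animal of the later weeks had fewer reads than the 4 highest animals of week 4. Animal 705 had no read, which allows a level of up to 0.148 CPM (3 reads of its total).

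The mean level on CDAA was 21.2 ± 50.3 CPM at week 4, 0.283 ± 0.195 at week 8 and 0.526 ± 0.620 at week 12 (SD, n = 8 each). These means were 8.03%, 0.108% and 0.179% of the CSAA means. The median, on which animal 303 weighs less, was 201-fold lower on CDAA at week 4, 726-fold at week 8 and 1067-fold at week 12. The 36 reads that the 8 animals of week 8 had in all correspond to 0.267 CPM, with an exact Poisson 95% interval of 0.187 to 0.370, and the 76 reads of week 12 to 0.496 CPM, with an interval of 0.390 to 0.620. The intervals cover counting error only, not the spread between animals. Of the 76 reads of week 12, animal 1104 had 31 and animal 1102 had 18. The medians were 0.314 CPM at week 8 and 0.281 CPM at week 12. Of the 3608 reads of week 4, 87.7% came from animal 303, and without it the ratio of means at week 4 was 74.1 instead of 12.4.

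**Figure D1:**
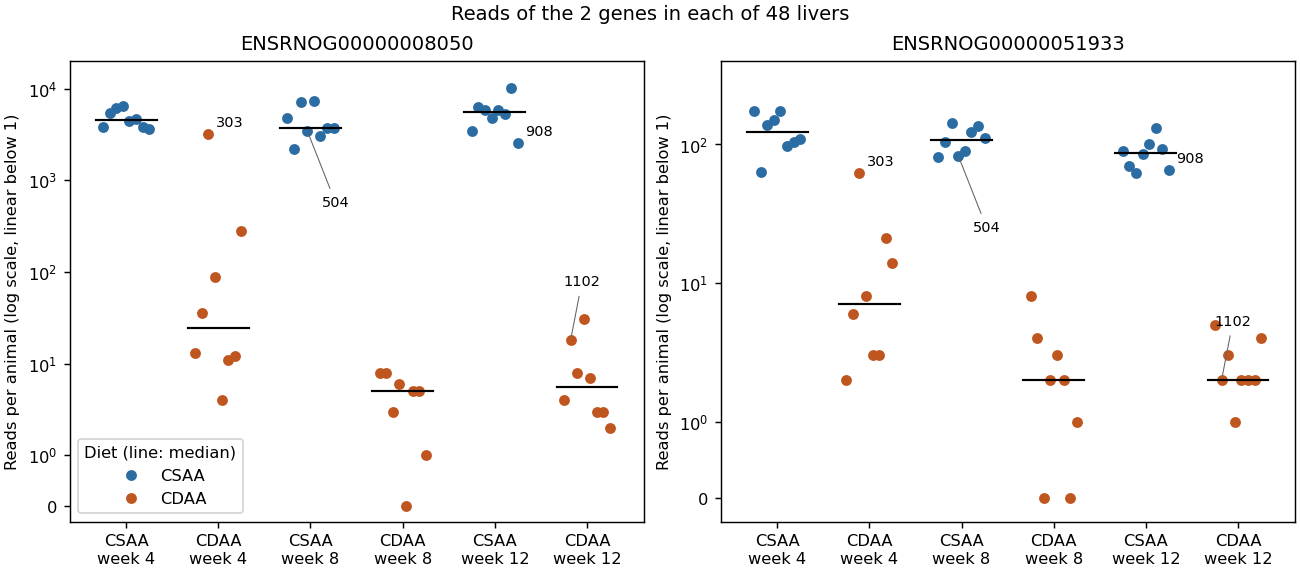
Reads per animal, on an axis that is logarithmic above 1 read and linear below, for ENSRNOG00000008050 and ENSRNOG00000051933 by diet and week. Points are animals, horizontal lines are group medians, and animals 303, 504, 908 and 1102 are labelled. The CDAA medians of the first gene were 24.5, 5 and 5.5 reads at weeks 4, 8 and 12, against 4569, 3735 and 5515 on CSAA, and animal 303 sits just under the controls of its week in both genes.

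ENSRNOG00000051933 showed the same division at a lower level. The 8 CSAA animals had 174, 63, 138, 150, 174, 98, 104 and 109 reads at week 4. They had 81, 104, 143, 83, 89, 124, 136 and 112 reads at week 8, and 89, 70, 62, 85, 100, 131, 93 and 65 reads at week 12. No control animal fell under 62 reads, so no control value rested on a handful of reads. The mean level was 6.99 ± 1.77 CPM at week 4, 6.39 ± 1.10 at week 8 and 4.64 ± 1.04 at week 12 (SD, n = 8 each). In RPKM order it ranked 5204th of 17602 detected genes at week 4 and 6373rd of 17872 at week 12.

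On CDAA the second gene had 2, 6, 62, 8, 3, 3, 21 and 14 reads at week 4. The 62 reads again belonged to animal 303, and the 21 to animal 307. The counts were 8, 4, 0, 2, 3, 2, 0 and 1 at week 8, and 5, 2, 3, 1, 2, 2, 2 and 4 at week 12. Animals 703 and 707 were at 0 reads, which allows up to 0.162 and 0.169 CPM. The mean level was 0.724 ± 0.909 CPM at week 4, 0.153 ± 0.159 at week 8 and 0.136 ± 0.0669 at week 12 (SD, n = 8 each), or 10.4%, 2.40% and 2.93% of the CSAA means. The 20 reads of all week 8 animals correspond to 0.149 CPM, with an exact Poisson interval of 0.0908 to 0.229, and the 21 reads of week 12 to 0.137 CPM, with an interval of 0.0848 to 0.209. Of the 119 reads of week 4, animal 303 held 52.1%, and without it the ratio of means of that week was 16.6 instead of 9.65.

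The ranges of the 2 diets did not overlap for either gene at any week. At week 4 the gap was narrow: the lowest CSAA level of ENSRNOG00000008050 was 194 CPM against a highest CDAA level of 145 CPM, and that of ENSRNOG00000051933 was 3.35 against 2.84 CPM. At week 8 the lowest control was 214-fold above the highest CDAA animal for the first gene and 10.6-fold for the second, and at week 12 it was 77.7-fold and 11.8-fold above. All CDAA animals lay below all CSAA animals in 1.7% of the 12756 genes that passed the filter on low counts at week 4, in 8.95% at week 8 and in 4.22% at week 12. Both genes were chosen on this contrast, so nothing is read from the comparison with these shares.

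In a quasi-likelihood fit (edgeR) over all 48 animals the log2 fold change of ENSRNOG00000008050 on CDAA was -3.74 (SE 0.72) at week 4, -10.50 (SE 1.08) at week 8 and -9.99 (SE 1.02) at week 12. For ENSRNOG00000051933 it was -3.54 (SE 0.37), -5.96 (SE 0.47) and -5.81 (SE 0.46). Of the 12756 genes, ENSRNOG00000008050 had the 9th lowest value at week 4 and the lowest at weeks 8 and 12, where the gene next to it stood at -9.03 and -8.99. ENSRNOG00000051933 ranked 10th, 10th and 19th. The week 4 value of the first gene was carried by animal 303: without the 4 animals described below it was -6.67 (SE 0.54), the lowest of all genes, and by limma-voom it was -7.41. That of the second gene became -4.47 (SE 0.30), the 15th lowest. Values under -5 were found in 3, 19 and 28 genes at the 3 weeks in turn. In 74 of the 12756 genes the log2 value was -1 or lower and the diets did not overlap at all 3 weeks. Ordered by the week 12 value, the 2 genes led these 74, and the genes just behind them stood at -5.79 and -5.53, so the second gene was set apart from the third by a margin far smaller than its standard error. The same contrast chose the 2 genes, so nothing is read from their place in this order.

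The size of both falls depended on the scaling of the libraries. TMM, the scaling used in the fit, adjusts the library size for the composition of the RNA, and its factors averaged 0.848 on CSAA and 1.29 on CDAA at week 8. With it the ratio of means of ENSRNOG00000008050 was 1424 at week 8 and 979.7 at week 12, against 924.6 and 559 by library size alone. For ENSRNOG00000051933 it was 63.5 and 60.6, against 41.6 and 34.1. Scaling by library size alone moved the median log2 fold change of all genes to 0.39, 0.65 and 0.73 at the 3 weeks.

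Within the CDAA groups the later weeks were lower than week 4 in mean and median, as the choice of the genes implies, but the animals overlapped. At week 8, 3 of 8 animals were below all animals of week 4 in each gene. At week 12 this held for 3 of 8 in the first gene and 1 of 8 in the second. The mean of ENSRNOG00000008050 at week 4 was 75.1-fold that of week 8, but the medians differed only 4.36-fold, since animal 303 carries the week 4 mean. The mean of ENSRNOG00000051933 was 4.72-fold higher at week 4 than at week 8, and its median 3.03-fold.

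The change with time on the control diet was not used to choose the genes, and it was tested. Neither gene passed the thresholds of adjusted p under 0.01 and a 2-fold change between any pair of weeks, where 0.047% of the 12756 genes passed from week 4 to 8, 2.78% from week 8 to 12 and 2.68% from week 4 to 12. From week 4 to week 12 the edgeR log2 fold change of ENSRNOG00000008050 was 0.22 (SE 0.64, adjusted p = 0.817). A fit of the 16 animals compared, which does not share the wide spread of the CDAA group of week 4, gave 0.16 with an interval of -0.23 to 0.55 (1.96 standard errors either way). For ENSRNOG00000051933 the edgeR value was -0.52 (SE 0.31, adjusted p = 0.181), and 8 of 8 animals of week 12 lay below the mean of week 4. The fit of 16 animals gave -0.58 with an interval of -0.92 to -0.24 and an edgeR adjusted p = 0.0165, which did not pass the threshold. With the trend of fold change on gene length removed the value was -0.26 (edgeR adjusted p = 0.532).

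The ratio of the 2 genes within an animal does not depend on library size. In RPKM the first gene stood at a median of 27.1 times the second in the CSAA animals of week 4 (range 15.0 to 58.5), 25.5 times at week 8 (14.2 to 56.3) and 39.4 times at week 12 (26.4 to 74.6). On CDAA the median ratio was 4.27 at week 4, 1.03 at week 8 over the 6 animals with reads of the second gene, and 1.43 at week 12. The ratio of the group means, which uses all 8 animals, was 20.2, 1.26 and 2.64 on CDAA, against 25.9, 28.0 and 43.4 on CSAA. The mean RPKM of ENSRNOG00000008050 was 169 ± 70.5 on CSAA and 0.182 ± 0.125 on CDAA at week 8, and that of ENSRNOG00000051933 was 6.04 ± 1.04 and 0.144 ± 0.149 (SD, n = 8 each). Ratios on CDAA rest on single-digit counts in most animals, and animal 1104 alone reached 21.2 at week 12.

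**Figure D2:**
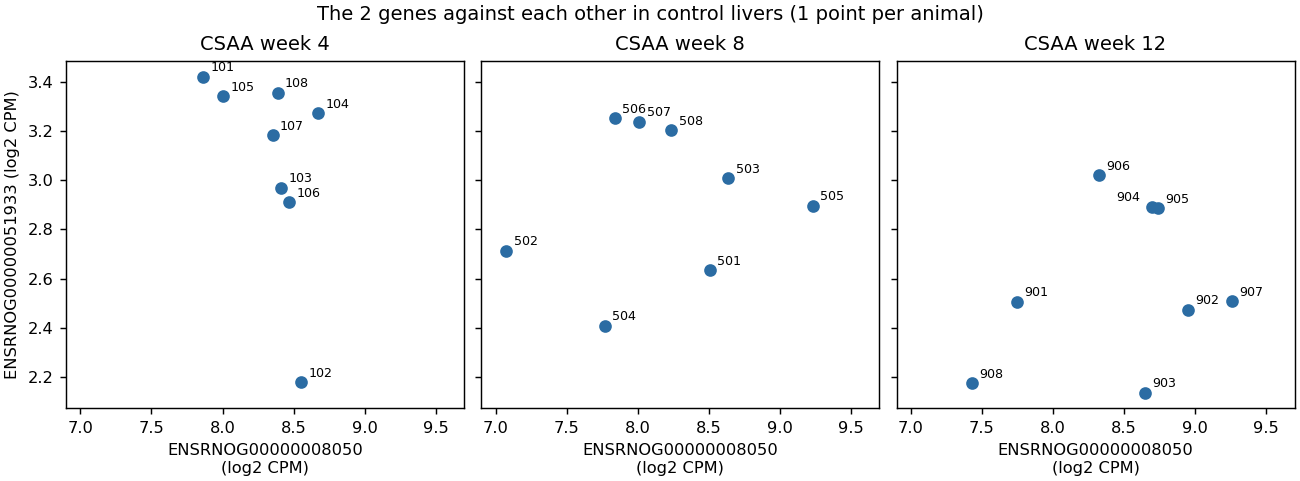
Levels of the 2 genes against each other in the 8 CSAA animals of each week, as log2 CPM (TMM scaling, prior count 2), with ENSRNOG00000008050 on the x axis and ENSRNOG00000051933 on the y axis and each point labelled with its animal. Pearson's r was -0.51, 0.15 and 0.27 at weeks 4, 8 and 12, and the points form no line at any week.

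Among control animals the 2 genes showed no shared rise and fall that 8 animals could establish. Pearson's r between their log2 levels was -0.51 at week 4 (exact permutation p = 0.206), 0.15 at week 8 (exact permutation p = 0.734) and 0.27 at week 12 (exact permutation p = 0.518). Spearman's rho was -0.667, 0.0952 and 0.190 (exact permutation p = 0.0831, 0.840 and 0.665). In this family 12 relations were computed, and after Benjamini-Hochberg adjustment the smallest adjusted value among these 3 was 0.352. Leaving out the 2 animals with the most extreme levels of the first gene gave r = -0.24, 0.01 and -0.43. With 8 animals a week only a strong relation could have passed.

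Animals 303, 504, 908 and 1102 were named as graded cases in choosing the genes. They stood apart from their groups in expression as a whole, which is given as a description. The first principal component (PC1) of log2(RPKM + 0.1) over the other 20857 genes held 58.6% of the variance and separated the diets. Animal 303, on CDAA for 4 weeks, scored 51.8 where its group mates scored -53.4 to -30.6. Animals 504 and 908 were controls of weeks 8 and 12, and scored -2.30 and 16.0 where their mates scored 45.2 to 86.9 and 63.0 to 81.8. Animal 1102, on CDAA for 12 weeks, scored -68.6 against -114 to -92.5. Each of the 4 was shifted from its group toward the other diet. Animal 303 lay below the controls of its own week, the lowest of which scored 68.4, animals 908 and 504 between the diets, and animal 1102 within the range of the CDAA animals of weeks 8 and 12.

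In CPM of the 2 genes animal 504 lay within the other controls of its week (on the TMM scale it was the lowest of them in the second gene) and animal 1102 within the other CDAA animals of its week. Animal 303 was below all controls of its week in both genes, and animal 908 below all others of its group in the first gene only. Animal 303 had 145 CPM of ENSRNOG00000008050, 54.8% of the control mean of its week, and 2.84 CPM of ENSRNOG00000051933, 40.6% of it. Animal 504 had 219.7 CPM and 5.24 CPM, or 82.1% and 79.9% of the mean of the other 7 controls. Animal 908 had 149 CPM and 3.79 CPM, or 47.2% and 79.7%. Animal 1102 had 0.931 CPM and 0.103 CPM, or 0.317% and 2.23% of the control mean. Among the controls, 3 of the 7 other controls of week 8 were below animal 504 in the first gene, whereas the control next above animal 908 was at 167 CPM. Animal 1102 had 18 reads of the first gene, a count that only animal 1104 of its group exceeded, and 2 of the second.

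**Figure D3:**
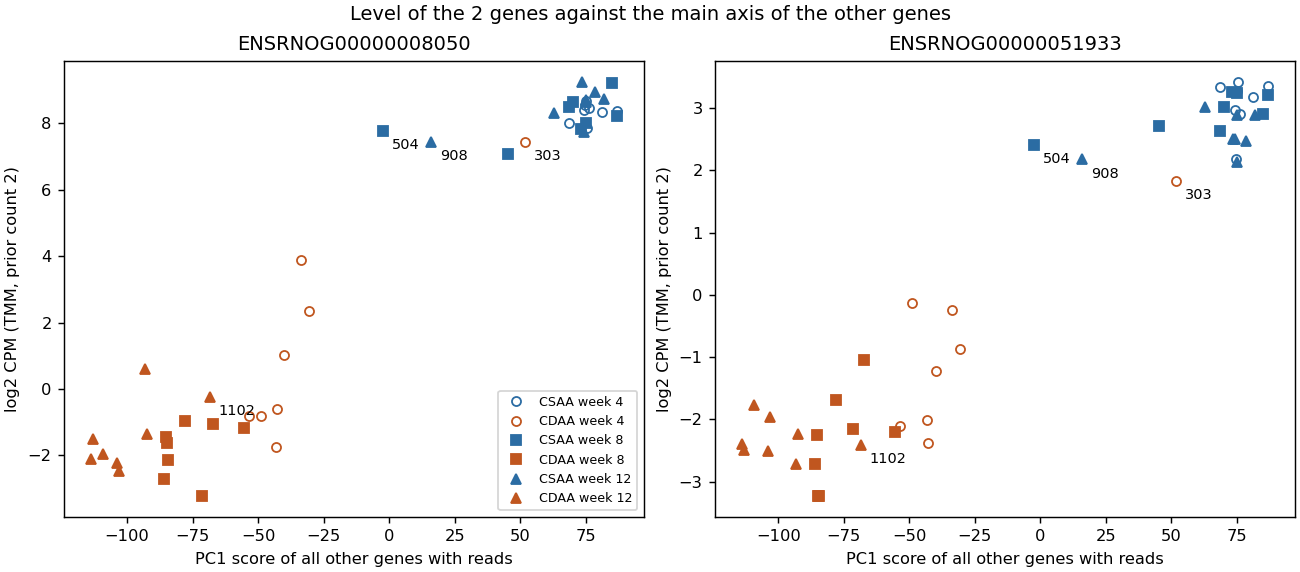
Level of each gene as log2 CPM (TMM scaling, prior count 2) on the y axis against the PC1 score over the other genes on the x axis, 1 point per animal, coloured by diet and shaped by week, with animals 303, 504, 908 and 1102 labelled. On this scale animal 504 (score -2.30) is the lowest of its group in the second gene, animal 908 (16.0) is the lowest of its group in the first gene, animal 303 (51.8) is below the controls of its week in both, and animal 1102 (-68.6) is within the other CDAA animals of its week.

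To set the 4 animals against other genes on a common scale, each gene's log2 CPM was placed between the CSAA mean (0%) and the CDAA mean (100%) of the week, with these means and the gene sets taken without the 4 animals. At week 4, 733 other genes were lower on CDAA, 5.75% of the other genes tested. Animal 303 had a median position of 25.1% over them (quartiles 6.95% to 45.8%), and stood at 11.2% for ENSRNOG00000008050 and 28.8% for ENSRNOG00000051933. Animal 504 had a median of 28.9% over 1525 genes (12% of the other genes tested at week 8) and stood at 4.49% and 11.0%. Of those genes 7.15% and 13.0% had a lower position, against 21.6% and 48.6% of the genes that fell at least 8-fold. Animal 908 had a median of 17.8% over 1324 genes (10.4% at week 12) and stood at 11.7% and 9.30%, where the other controls of its week reached 9.90% and 11.5%. Animal 1102 had a median of 82.4% and stood at 86.9% and 102%.

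A gene with a large fall covers a long log scale, which makes a given fold a small step on it. Against only those other genes whose fall was at least 8-fold, the medians were 30.8% for animal 303 over 53 genes (0.416% of the other genes tested), 11.9% for animal 504 over 74 genes (0.58%), and 9.66% for animal 908 and 83.7% for animal 1102 over 79 genes (0.619%). By that measure both genes lay below the median in animals 303 and 504, on either side of it in animal 908, and above it in animal 1102. In animal 1102 the second gene had only 2 reads. Among these 4 animals the first gene in animal 303, at 11.2% against 30.8%, was the farthest under the median. That position was still within the quartiles of the 53 genes in animal 303, 4.66% to 48.7%, so it did not stand out from them. Of the animals not named as graded cases, 308 stood at 52.8% and 73.3% for the 2 genes, with a median of 76.0% over the 53 genes and of 90.2% over the 733. Animal 304 stood at 73.3% and 89.0%, with medians of 95.8% and 89.1%. Animal 302 was also below its median over the 53 genes in the first gene, at 91.7% against 98.0%. Animals 301, 305, 306 and 307 were above theirs in the first gene, at 116%, 135%, 120% and 119% against 112%, 104%, 107% and 104%. In the second gene animals 301, 302, 305 and 306 were above their medians, at 131%, 98.4%, 120% and 123%. Animal 307 stood at 70.4% in the second gene, under the lower quartile of 88.7% over the 53 genes. Unlike for the 4 graded cases, the gene sets were called with these animals included.

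**Figure D4:**
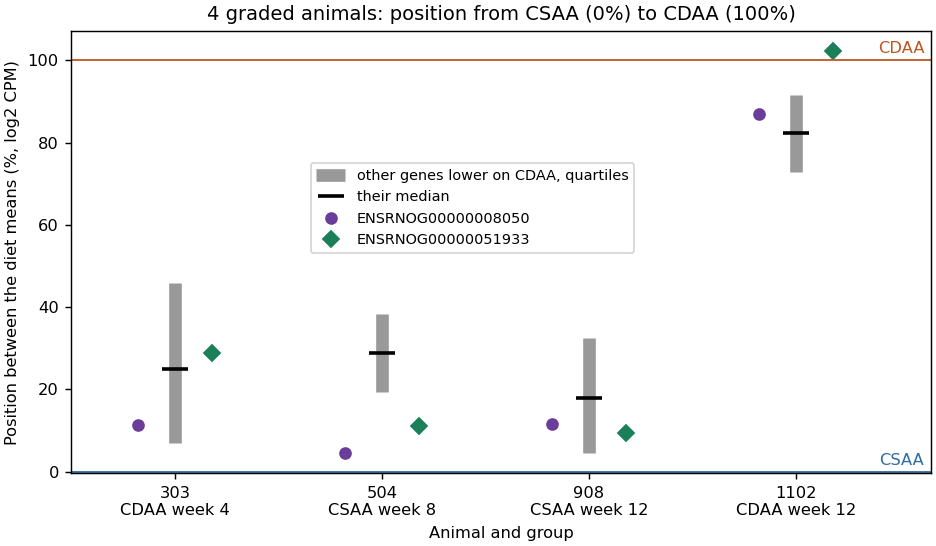
Position of animals 303, 504, 908 and 1102 between the CSAA mean (0%) and the CDAA mean (100%) of their week on the log2 CPM scale, for the 2 genes as points and for the other genes lower on CDAA as the median with quartiles. Animal 504 stands at 4.49% and 11.0% for the 2 genes against a median of 28.9%, and animal 1102 at 86.9% and 102% against 82.4%. The 102% rests on 2 reads.

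Among the 8 CDAA animals of week 4, r of ENSRNOG00000008050 with PC1 was high, and it was lower but still high without animal 303. The adjusted p-value did not stay under 0.05 without that animal, where fewer animals also make a low p-value harder to reach. Pearson's r with all 8 was 0.88 (exact permutation p = 0.00223, adjusted p = 0.0268 over 12 relations) and Spearman's rho 0.905 (exact permutation p = 0.00456, adjusted p = 0.0548). Without animal 303 the values were r = 0.80 (exact permutation p = 0.0359) and rho = 0.857 (exact permutation p = 0.0238). The adjusted permutation p of that r was 0.108, adjusted over the relations of this group alone. Without animals 303 and 306, the farthest from the median score, r was 0.84 with an adjusted permutation p of 0.5 over the 12 relations. For ENSRNOG00000051933 r was 0.82 (exact permutation p = 0.0241, adjusted p = 0.0633), and 0.38 without animal 303, so that relation rests on that animal. Between the levels of the 2 genes r was 0.85 (exact permutation p = 0.00987, adjusted p = 0.0540), and 0.60 without animal 303. Animal 303 was named in choosing the genes and was the highest of its group in PC1 and in both genes. Nothing is therefore read from the p-values on CDAA that include it. On the control diet the relation of the first gene to PC1 was 0.26, 0.53 and 0.72 at the 3 weeks, and that of the second 0.17, 0.77 and 0.41, and none of these 6 passed 0.05 after adjustment. Without the 2 animals farthest from the median score, the first gene had r of -0.11, 0.28 and 0.17, and the second 0.30, 0.31 and 0.42. The animals left out were 105 and 108 at week 4, 502 and 504 at week 8, and 906 and 908 at week 12.

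Over all 48 animals the pattern of each gene was shared by many others. Across log2 levels, 625 of the other 12755 genes had r of at least 0.9 with ENSRNOG00000008050 and 557 had r of -0.9 or lower, and the 5 most alike had r of 0.983, 0.978, 0.971, 0.970 and 0.970. ENSRNOG00000051933 was the 8th most alike, with r = 0.969, and ENSRNOG00000008050 was the 2nd most alike in turn. For ENSRNOG00000051933 the counts were 613 and 560 genes. With group means removed, which leaves differences between animals on the same diet for the same time, the 5 genes most like ENSRNOG00000008050 had r of 0.765 to 0.846, and ENSRNOG00000051933 was 98th with r = 0.626. These values share the library of each animal and the weight of animal 303 at week 4, and are descriptions only.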

How the data were processed

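Liver poly(A) RNA of 48 rats had been sequenced as stranded single-end libraries of 85 bases. The authors aligned the reads with STAR to Rnor_6.0 with Ensembl 84 genes and deposited raw read counts per gene. They also deposited RPKM values, which the methods call FPKM. The STAR version is not used here because the sources differ, and the strand setting of the counting is not given in the sources used here. Groups came from the labels, and 0 columns stayed unmapped. The 2 genes, and every comparison made, were chosen with earlier results of these data known.

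The 12756 genes reaching 1 CPM in 5 or more animals of any group were fitted with edgeR 4.0.16 (quasi-likelihood test, TMM scaling, a coefficient for each group). A call needed a Benjamini-Hochberg adjusted p under 0.01 together with a 2-fold change in either direction. limma 3.58.1 (voom) and DESeq2 1.42.0 were alternatives. Correlations within groups used two-sided exact permutation tests. Nothing says how cages were shared, so p-values measure the spread between animals as sampled. Pathway and cell type lists had been planned and were not used, since identifiers were not paired with names. Named genes were the 2 listed identifiers only.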

Additional observations from a re-analysis of the deposited data

Results flagged for a closer look

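In 3 of the 12 sets of 8 values examined, each set being 1 gene in 1 group, 1 animal lay far from the others by Dixon's criterion. Chance flags about 1 in 20 sets of normally spread values. These sets are not independent, since both genes share each library and animal 303 was named in choosing the genes, so nothing is read from the number of sets. Animal 303 (CDAA, week 4) had 145 CPM of ENSRNOG00000008050, with the next animal at 15.9 CPM. The same animal had 2.84 CPM of ENSRNOG00000051933, with the next at 0.942 CPM. Animal 1104 (CDAA, week 12) had 1.91 CPM of ENSRNOG00000008050, from 31 reads with an exact Poisson interval of 1.30 to 2.72 CPM, and the next animal had 0.931 CPM. Its ENSRNOG00000051933 level was the lowest of its group, from 1 read.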

How the results depend on the processing

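Of 317 alternative values, 288 kept their direction and side of the threshold, 21 moved, 6 reversed and 2 no longer passed. The cause was not tested. The edgeR change of ENSRNOG00000008050 from week 4 to week 8 on CSAA, -0.07, became 0.012 without the 4 graded animals and ran from -0.27 to 0.042 leaving out 1 animal at a time. The 6 genes called in that comparison became 60 with DESeq2, 13 with library size alone, 19 without the 4 graded animals, 1 with only the animals compared, 18 with the length trend removed, 14 on log2(RPKM + 0.1) and 4 to 16 leaving out 1 animal. The 355 of week 8 to week 12 became 214 with the length trend removed, and the 342 of week 4 to week 12 became 147 on log2(RPKM + 1). The diet log2 fold change of ENSRNOG00000008050 at week 4 was -7.41 by limma-voom and -6.67 without the 4 graded animals, and that of ENSRNOG00000051933 with library size alone was -5.35 at week 8 and -5.01 at week 12. Ratios of means moved to 74.1 (ENSRNOG00000008050, week 4, without animal 303, chosen after seeing the data) and, with TMM factors, to 63.5 and 60.6 (ENSRNOG00000051933, weeks 8 and 12). Among relations on CSAA, r between the 2 genes became -0.10 at week 8 with RPKM and -0.43 at week 12 without 2 animals, and PC1 with ENSRNOG00000008050 became -0.11 at week 4 without 2. On CDAA at week 4 the adjusted p-value of the last relation did not stay under 0.05 without animals 303 and 306 (r = 0.84, adjusted permutation p = 0.5) or without 303 (r = 0.80, adjusted permutation p = 0.108). Nothing is read from its p-value with animal 303 included, as that animal was named in choosing the genes. The value of 0.108 was adjusted over the relations of that group alone. No paired analysis was possible because no animal number is shared between groups. Gene list alternatives were not run, as identifiers are not paired with names. At weeks 8 and 12 the counts on CDAA limit what can be said of changes there.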
